A study of Danio rerio with 2 samples.

Results

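The Cxcl12 chemokines and their receptors were examined as 5 genes, the ligands cxcl12a and cxcl12b and the receptors cxcr4a, cxcr4b and ackr3b (also called cxcr7b). They were found by gene identifier and protein name in both count files, and all 5 were present among the 22017 gene identifiers with at least 1 read in either library. Each was represented by 1 transcript, so that the reads of the gene were those of its transcript. The libraries came from Tg(fli1a:EGFP)y1 zebrafish embryos at 22 to 24 hpf (hours post fertilisation; the series' design text gives 24 hpf), which were dissociated and sorted by green fluorescence. GFP+ cells, labelled endothelial, were compared with GFP- cells, labelled non-endothelial. Both populations carried the same transgene, in which the promoter of the ETS factor gene fli1a drives EGFP, and this promoter is known to be active in some blood and pharyngeal arch cells besides vessels. RNA of each population was sequenced as 1 library, so no difference below has a replicate check and no test between conditions was possible.

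Cxcl12, formerly Sdf1, is a secreted chemokine that guides migrating cells. Cxcr4 receptors pass its signal on through Gi proteins, whereas Ackr3 is an atypical receptor that couples to arrestins instead and removes the ligand from the tissue by taking it up. In zebrafish, cxcr4b and cxcl12a are known for steering primordial germ cells and the lateral line primordium, in both of which ackr3b shapes the ligand field, and cxcr4a with cxcl12b is known from the patterning of the early arteries.

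The GFP+ library held 4441335 counted reads and the GFP- library held 4105672. The floor of 3 reads used here equals 0.675 RPM (reads scaled to the library total) among GFP+ reads against 0.731 RPM among GFP- reads. Hemoglobin took 6.25% of the GFP+ reads and 0.0524% of the GFP- reads. Marker lists were compared between the libraries. They were chosen with earlier results of these data known, so they are not an independent check of the sort. Of 28 vascular genes listed, 5 had no matched read, fli1a among them, and 4 had fewer than 10 reads. An unmatched gene may have had no read or no symbol, so the level of fli1a is not known. Of 19 vascular genes with 10 reads or more in the libraries together, 17 had a log2 ratio of GFP+ over GFP- cells above 1, led in reads by the VEGF receptor gene kdrl with 2640 reads in GFP+ cells against 71 in GFP- cells. Of 13 erythroid genes 12 were above 1, and of 7 myeloid genes 6, so the GFP+ library held blood cell transcripts as well as endothelial ones. Intervals are 95% exact intervals and cover counting error only, and in bulk RNA fewer cells of a type and less RNA per cell cannot be told apart.

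None of the 5 genes had a counting interval above 0 in GFP+ cells, the population in which the vascular transcripts were higher. The receptor gene ackr3b was 3.15-fold lower in GFP+ cells, the ligand genes and cxcr4b were 1.61-fold to 1.90-fold lower, and cxcr4a had the same level in both libraries within a wide counting interval. Log2 ratios were computed from RPM with 0.5 reads added to each library. Among the 15252 genes that reached 10 reads in the libraries together, the median log2 ratio was -0.11, 16.2% were above 1 and 17.6% were below -1. Of the 5 genes, 0 were above 1 and 1, ackr3b, was below -1. Counting intervals lay wholly below 0 for 4 of the 5 genes and for 30.2% of all genes, and wholly above 0 for 0 of the 5 and for 23.7% of all genes. Such intervals narrow as reads increase, and the shares of all genes were not matched to the 5 genes in read count. The median log2 ratio of the 5 genes was -0.83.

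Of the ligands, cxcl12b occupies bases 27551657 to 27567596 of chromosome 22 of the Zv9 assembly, reverse strand (ENSDARG00000055100), with a transcript of 2844 bases. It had 798 reads in GFP+ cells against 1315 in GFP- cells, which gave 63.2 RPKM (reads divided by transcript length in kilobases and by the library total; interval 58.9 to 67.7) in GFP+ cells against 113 RPKM (107 to 119) in GFP- cells. It was thus the highest of the 5 genes in both libraries. Its log2 ratio was -0.83 (-0.96 to -0.71), or 1.78-fold lower in GFP+ cells (1.63 to 1.95). By RPKM it ranked 1233 among all genes in GFP+ cells against 749 in GFP- cells, and 21.6% of genes with 10 reads or more had a lower ratio.

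The other ligand gene, cxcl12a, occupies bases 31027969 to 31043317 of chromosome 13, forward strand (ENSDARG00000037116), with a transcript of 3041 bases. It had 378 reads in GFP+ cells against 563 in GFP- cells. Its level was 28.0 RPKM (25.2 to 31.0) in GFP+ cells against 45.1 RPKM (41.4 to 49.0) in GFP- cells, intervals that did not overlap. The log2 ratio was -0.69 (-0.88 to -0.50), or 1.61-fold lower in GFP+ cells (1.41 to 1.84). Among genes with 10 reads or more, 25.7% had a lower ratio, so cxcl12a lay between the quartiles of all genes (-0.72 to 0.59). The ligand genes differed between the libraries by similar amounts. The log2 ratio of cxcl12a exceeded that of cxcl12b by 0.15, with an interval of -0.09 to 0.38 that includes 0, and a difference of this kind does not depend on how the libraries are scaled. Within the GFP+ library, cxcl12a took 32.1% of the 1176 ligand reads (exact Clopper-Pearson interval 29.5% to 34.9%), and within the GFP- library 30.0% of 1878 (27.9% to 32.1%). Per length, cxcl12b stood 2.26-fold above cxcl12a in GFP+ cells against 2.50-fold in GFP- cells.

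The receptor gene ackr3b, whose product takes up Cxcl12 without Gi signalling, occupies bases 15651810 to 15657695 of chromosome 6, reverse strand (ENSDARG00000058179), with a transcript of 1953 bases. It had 262 reads in GFP+ cells against 763 in GFP- cells. The level was 30.2 RPKM (26.7 to 34.1) in GFP+ cells against 95.2 RPKM (88.5 to 102.2) in GFP- cells. The log2 ratio of -1.65 (-1.86 to -1.45) was the lowest of the 5, and 7.75% of all genes with 10 reads or more had a lower one. By rank of RPKM, ackr3b was gene 2477 in GFP+ cells against gene 890 in GFP- cells.

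The gene cxcr4b encodes the Gi-coupled Cxcl12 receptor used by germ cells and the lateral line. It occupies bases 10917685 to 10919710 of chromosome 9, forward strand (ENSDARG00000041959), with a transcript of 1674 bases. It had 46 reads in GFP+ cells against 81 in GFP- cells, or 6.19 RPKM (4.53 to 8.25) in GFP+ cells against 11.79 RPKM (9.36 to 14.6) in GFP- cells. The log2 ratio was -0.92 (-1.48 to -0.39), and the interval spans the threshold of -1. Among genes with 10 reads or more, 19.1% had a lower ratio.

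Its paralog cxcr4a, the receptor gene tied to arteries, occupies bases 12833922 to 12835647 of chromosome 6, forward strand (ENSDARG00000057633), with a transcript of 1636 bases. It was the lowest of the 5 in both libraries, with 27 reads in GFP+ cells against 25 in GFP- cells, or 3.72 RPKM in each (2.45 to 5.41 in GFP+ cells and 2.41 to 5.49 in GFP- cells). Its interval on the log2 scale, -0.84 to 0.84, leaves room for a level up to 1.79-fold higher or 1.79-fold lower in GFP+ cells, so a difference below this size was not detectable at this depth. The sign of its log2 ratio, which was 0.00 to 2 decimals, turned with the scaling of the libraries (0.10 with TMM). The vascular list held kdrl at a log2 ratio of 5.09 in the same libraries. The 2 measured genes of that list that were not above 1 were aplnrb and aplnra. With TMM scaling 18 of the 19 measured genes of the list were above 1. The log2 ratio was 0.96 for aplnrb (0.61 to 1.32) and -0.98 for aplnra (-2.47 to 0.31). The latter rested on 8 reads in GFP+ cells against 15 in GFP- cells. Both were picked out after their values were seen.

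**Figure D1:**
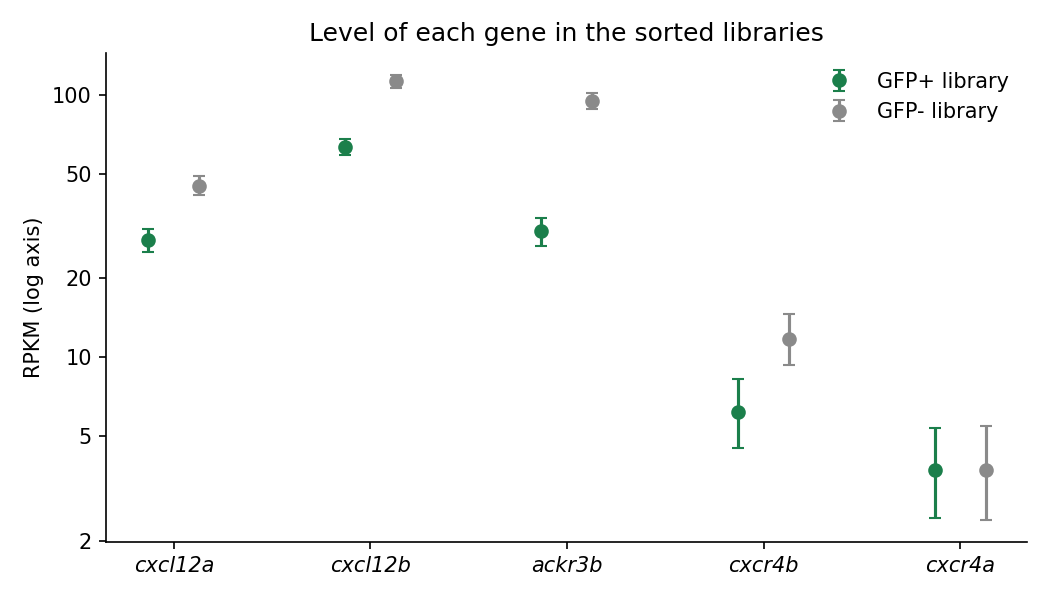
RPKM of each of the 5 genes on a log axis, in GFP+ cells (green, left) and GFP- cells (grey, right), 1 library each, with bars for the 95% exact Poisson counting interval. The ligand genes, ackr3b and cxcr4b lie lower in GFP+ cells, with intervals that do not overlap, whereas cxcr4a lies at 3.72 RPKM in both.

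The 5 genes had the same order of level in both libraries, but the spacing differed at the top. In GFP+ cells, cxcl12b was followed by ackr3b and cxcl12a, which could not be told apart by their reads (ratio per length 1.08, 0.918 to 1.27). They were followed by cxcr4b, with cxcl12a 4.52-fold above it, and by cxcr4a, with cxcr4b 1.67-fold above it (1.01 to 2.79). In GFP- cells, ackr3b came close to cxcl12b (ratio of cxcl12b to ackr3b per length 1.18, 1.08 to 1.30) and stood 2.11-fold above cxcl12a (1.89 to 2.36). There, cxcr4b stood 3.17-fold above cxcr4a (2.001 to 5.18).

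The receptors differed among themselves more than the ligands did. Of the 10 pairs of genes compared, the interval of the difference in log2 ratio excluded 0 for the 4 pairs that include ackr3b and for none of the other 6. For cxcr4a minus cxcl12b the difference was 0.83 (-0.02 to 1.69), and for cxcr4a minus cxcl12a 0.69 (-0.18 to 1.55). These intervals were wide because cxcr4a had few reads, so the split of the pairs partly reflects read number. The log2 ratio of ackr3b was lower than that of cxcr4b by 0.73 (difference -0.73, -1.31 to -0.13) and lower than that of cxcr4a by a larger margin (difference -1.65, -2.52 to -0.78). Against the ligand genes the differences were -0.97 (-1.25 to -0.68) for cxcl12a and -0.82 (-1.07 to -0.58) for cxcl12b. Between cxcr4b and cxcr4a the difference was -0.92, with an interval of -1.94 to 0.09, so the reads do not settle whether the paralogs differed. The intervals are not adjusted for the number of pairs.

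**Figure D2:**
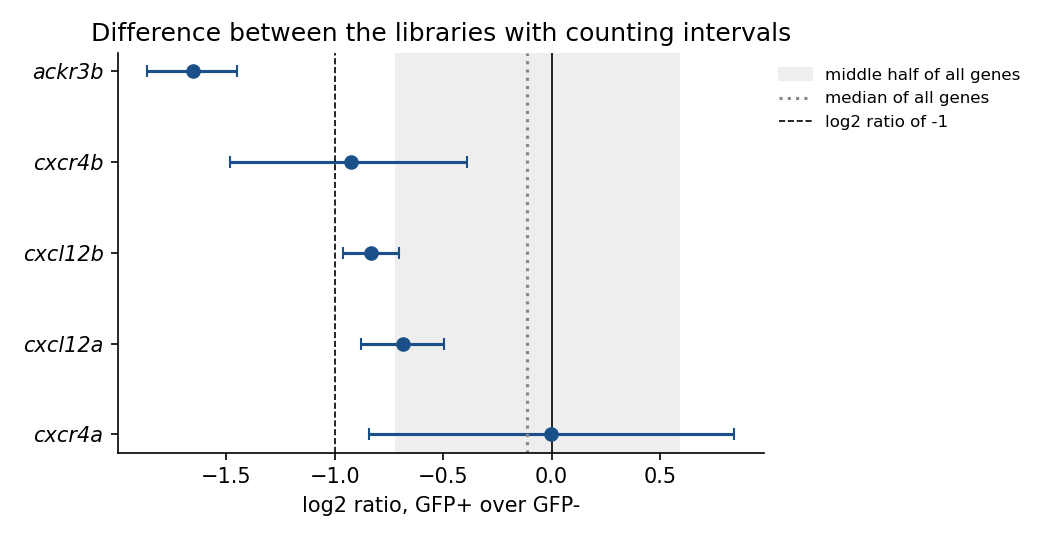
Log2 ratio of RPM, GFP+ over GFP-, for each gene, with bars for the 95% exact counting interval, beside the median (dotted) and the span between the quartiles (shaded, -0.72 to 0.59) of all 15252 genes with at least 10 reads. The interval of ackr3b lies wholly below the dashed line at -1, and that of cxcr4a spans 0.

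The makeup of the receptor reads therefore differed between the libraries. Of 335 receptor reads in GFP+ cells, ackr3b took 78.2% (73.4% to 82.5%), cxcr4b 13.7% (10.2% to 17.9%) and cxcr4a 8.06% (5.38% to 11.51%). Of 869 receptor reads in GFP- cells, ackr3b took 87.8% (85.4% to 89.9%), cxcr4b 9.32% (7.47% to 11.45%) and cxcr4a 2.88% (1.87% to 4.22%). The intervals of the ackr3b and cxcr4a shares did not overlap between the libraries, whereas those of cxcr4b did. Even in GFP+ cells, then, the atypical receptor held most of the receptor reads. Per length, ackr3b stood 3.05-fold above the sum of cxcr4a and cxcr4b in GFP+ cells against 6.14-fold in GFP- cells. Summed ligand RPKM was 2.27-fold the summed receptor RPKM in GFP+ cells (91.2 against 40.1) and 1.43-fold in GFP- cells (158 against 111). Between the Cxcr4 paralogs alone, cxcr4a took 37.0% of 73 reads in GFP+ cells (26.0% to 49.1%) against 23.6% of 106 in GFP- cells (15.9% to 32.8%), intervals that overlap. These shares are of reads and do not give the amount of receptor protein.

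**Figure D3:**
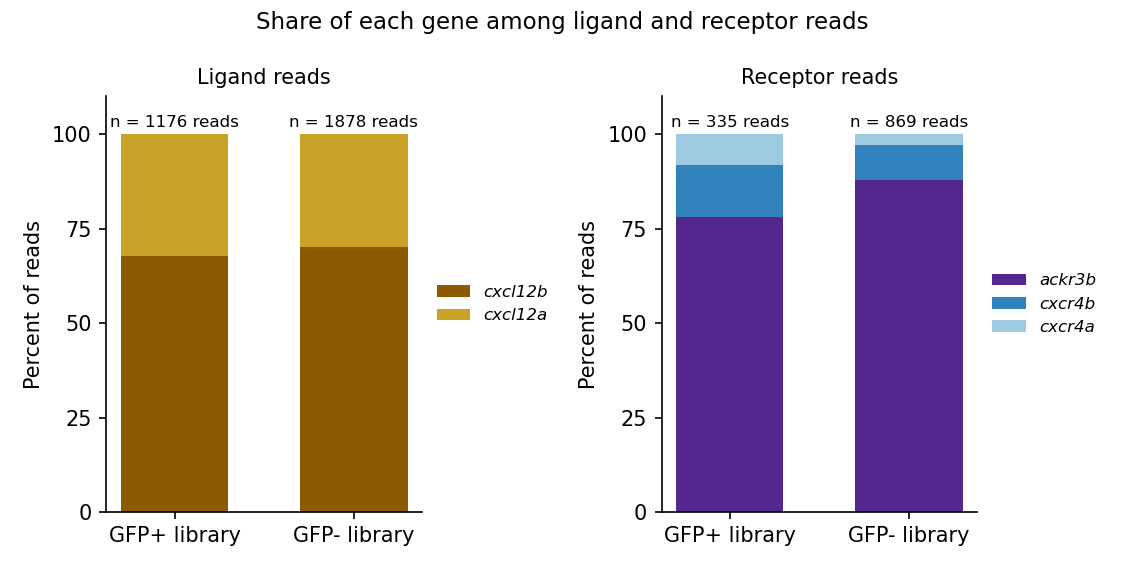
Percent of the ligand reads (left) and of the receptor reads (right) taken by each gene in the GFP+ library (left bar) and the GFP- library (right bar), with the number of reads above each bar. The ligand shares lie close together, with cxcl12a at 32.1% in GFP+ cells against 30.0% in GFP- cells, and the share of ackr3b is 78.2% in GFP+ cells against 87.8% in GFP- cells.

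The percent of each transcript covered by reads was a further readout in the files. Reads covered 95.4% of cxcl12b in GFP+ cells against 98.0% in GFP- cells, 85.1% of cxcl12a in GFP+ cells against 94.4% in GFP- cells, and 94.4% of ackr3b in GFP+ cells against 95.6% in GFP- cells. For cxcr4b coverage was 67.7% in GFP+ cells against 72.9% in GFP- cells. Coverage of cxcr4a was lower, at 27.9% in GFP+ cells against 23.0% in GFP- cells, or 456 bases in GFP+ cells against 376 in GFP- cells. Of transcripts within 20% of its length and read count, 25.7% of 338 had lower coverage in GFP+ cells (median 41.2%), and 17.8% of 393 in GFP- cells (median 40.4%). Which bases were covered is not given by the files. For cxcr4b, 79.0% of like transcripts had lower coverage in GFP+ cells against 53.9% in GFP- cells.

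Markers of other cell types were compared between the same libraries. The summed level of 10 matched muscle markers was 933 RPM in GFP+ cells against 3000 RPM in GFP- cells, and that of 11 matched neural markers was 569 RPM in GFP+ cells against 1765 RPM in GFP- cells. Of the 9 muscle genes with at least 10 reads 8 were below -1 (median log2 ratio -1.98), led in reads by the actin gene actc1b with 2425 reads in GFP+ cells against 7904 in GFP- cells. In the opposite direction, mef2ca had 691 reads in GFP+ against 563 in GFP- (log2 ratio 0.18, 0.02 to 0.35). The marker tnnt3a had 0 reads in GFP+ cells against 1 in GFP- cells, too few to show a difference. Of the 10 such neural genes 9 were below -1 (median -1.42), and 6 with TMM scaling, size factors or totals without hemoglobin, led by the neural progenitor factor gene sox3 with 476 reads in GFP+ against 1801 in GFP-. The neural gene elavl4 had 14 reads in GFP+ against 8 in GFP- (log2 ratio 0.66, -0.66 to 2.15). The marker pax6b had 0 reads in GFP+ cells against 2 in GFP- cells, again too few. The ratio of ackr3b, -1.65, lay between the muscle and neural medians, but above both with at least 50 reads (muscle -2.05, neural -1.87). Of the 9 matched genes listed for the lateral line and germ cells, 4 were at 0 in GFP+ cells. In these tissues cxcr4b and ackr3b are known to act. Of the 4, eya1 and piwil1 had only 5 and 1 reads in GFP- cells, and tdrd7a had 34. The germ cell gene nanos3 had 0 reads in GFP+ cells against 44 in GFP- cells. It was 15.9-fold lower with GFP+ cells set to the floor of 3 reads, and the upper end of its log2 interval was -3.63. The summed level of the 9 genes was 48.4 RPM in GFP+ cells against 197 RPM in GFP- cells, with 6 of 7 genes below -1. The remaining gene, lef1, had 7 reads in GFP+ against 4 in GFP- (log2 ratio 0.62, -1.28 to 2.91). Most reads of the list fell on six1b, with 149 reads in GFP+ against 351 in GFP-. In GFP- cells six1b (85.5 RPM) and sox21a (62.6 RPM) were the largest parts of the sum, which cannot be assigned to these tissues alone. Neural crest and pharyngeal arch markers, pooled in a list, summed to 215 RPM in GFP+ cells against 426 RPM in GFP- cells. Of 10 genes, 6 were below -1 (5 with TMM, size factors, totals without hemoglobin or 5 reads added) and 1 was above 1. The marker foxd3 had 0 reads in GFP+ cells against 14 in GFP- cells, and dlx3b had most reads (208 reads in GFP+ against 590 in GFP-). Above 1 was dlx1a, with 69 reads in GFP+ against 24 in GFP- (log2 ratio 1.39, 0.72 to 2.15). Also above 0 were barx1 (0.72, -0.38 to 1.96) and twist1a (0.21, -0.07 to 0.50), with intervals that include 0. The sum does not give the level of crest or arch genes alone. Pronephros markers summed to 107 RPM in GFP+ cells against 150 RPM in GFP- cells, with 2 of 8 below -1, none at 0, and most reads on atp1a1a.4 (207 reads in GFP+ against 295 in GFP-). On the other side, vascular markers summed to 3781 RPM in GFP+ cells against 178 RPM in GFP- cells, while plvapa had 0 reads in GFP+ cells against 2 in GFP- cells, and cdh5, tek and sox7 had 5, 7 and 2 reads in GFP+ cells against 0 in GFP- cells. Of these 4 genes the counting interval excluded 0 for tek alone. Myeloid markers summed to 258 RPM in GFP+ cells against 29.7 RPM in GFP- cells, led by the lysozyme gene lyz (381 reads in GFP+ against 7 in GFP-), and ptprc, marco and cxcr3.2 had 1, 1 and 2 reads in GFP+ cells against 0 in GFP- cells, too few to show a difference. Erythroid markers summed to 39400 RPM in GFP+ cells against 402 RPM in GFP- cells, led by the embryonic globin gene hbbe3 (96789 reads in GFP+ against 783 in GFP-), and slc4a1a had 46 reads in GFP+ cells against 0 in GFP- cells. The markers named here for a count of 0, and mef2ca, elavl4, lef1, sox21a, dlx1a, barx1 and twist1a, were picked out after their values were seen. The part of these cells in the differences of the Cxcl12 genes was not tested.

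Of the listed chemokines and receptors outside the Cxcl12 axis that were matched with a read, most had fewer than 10 reads. Those with at least 10 reads differed in both directions. A listed gene without a match may have had no read or no symbol, so its level is not known. Of 36 ligand genes listed, 17 were matched with a read and 7 had at least 10 reads. Of these 7, 3 were above 1 (16.2% of all genes), 2 were below -1 (17.6% of all genes) and the median log2 ratio was 0.84, the value of cxcl8a. With 7 genes, these counts cannot be told from the shares of all genes. With at least 50 reads only cxcl14 and cxcl18b were left, and the median turned to -0.39. The most read was cxcl14, a CXC chemokine gene, with 162 reads in GFP+ cells against 530 in GFP- cells (log2 ratio -1.82, -2.09 to -1.57). In the opposite direction, cxcl18b, whose product attracts neutrophils in zebrafish, had 348 reads in GFP+ cells against 157 in GFP- cells (log2 ratio 1.03, 0.76 to 1.32). The chemokine gene cxcl20 had 23 reads in GFP+ cells against 0 in GFP- cells, 7.09-fold higher with GFP- cells set to the floor of 3 reads. The lower end of its log2 interval was 2.41. The neutrophil attractant gene cxcl8a had 14 reads in GFP+ against 7 in GFP- (log2 ratio 0.84, -0.52 to 2.44), and ccl25b had 5 reads in GFP+ against 8 in GFP- (log2 ratio -0.74, -2.75 to 1.00). For ccl19b there were 10 reads in GFP+ cells against 1 in GFP- cells (log2 ratio 2.69, 0.40 to 8.65), and for ccl20a.3 there were 2 reads in GFP+ against 8 in GFP- (log2 ratio -1.88, -5.39 to 0.21).

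Of 24 other receptor genes listed, 8 were matched with a read and 2 had at least 10 reads. The receptor gene ccr6a had 3 reads in GFP+ cells against 29 in GFP- cells (log2 ratio -3.19, -5.75 to -1.70), and ccr12b.2 had 9 reads in GFP+ against 2 in GFP- (log2 ratio 1.81, -0.22 to 5.31). The closest relative of ackr3b, ackr3a, picked out after its values were seen, had 0 reads in GFP+ cells against 4 in GFP- cells, a difference not detectable at this depth. Among the matched chemokine receptor genes, ackr3b and cxcr4b had the most reads in both libraries, and cxcr4a with 27 reads came next in GFP+ cells, whereas ccr6a with 29 reads stood above the 25 of cxcr4a in GFP- cells.

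The parts that act below the receptors were listed in 4 groups, of which 30 of 61 genes had a match and at least 10 reads. Their median log2 ratio was 0.62, against -0.11 over all genes. Of the 30, 9 were above 1 (16.2% of all genes) and 3 below -1 (17.6% of all genes). Counting intervals, again not matched in read count, lay wholly above 0 for 16 of the 30 (23.7% of all genes) and wholly below 0 for 6 (30.2% of all genes). The 6 were gnai1, gnai3, grk5, rgs2, rgs4 and pik3r1. Of the 6 Gi protein subunit genes measured, none was above 1 and 1 was below -1 (median 0.20). The alpha subunit gene gnai3 had 23 reads in GFP+ cells against 43 in GFP- cells (log2 ratio -1.002, -1.81 to -0.25), and 0 of the 6 genes lay below -1 with TMM scaling, median-of-ratios size factors, totals without hemoglobin or 5 reads added. The more abundant alpha subunit gene gnai1 had 382 reads in GFP+ against 420 in GFP- (log2 ratio -0.25, -0.45 to -0.05). The gamma and beta subunit genes gng2 and gnb2 had log2 ratios of 0.81 (135 reads in GFP+, 71 in GFP-) and 0.66 (103 in GFP+, 60 in GFP-).

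Of 6 genes for arrestins and the kinases that mark active receptors, 2 were above 1 and 1 was below -1 (median 0.55). The receptor kinase gene grk6 had 354 reads in GFP+ cells against 105 in GFP- cells (log2 ratio 1.64, 1.32 to 1.97), grk5l had 55 reads in GFP+ against 25 in GFP- (log2 ratio 1.01, 0.32 to 1.77), grk3 had 407 reads in GFP+ against 301 in GFP- (log2 ratio 0.32, 0.10 to 0.54) and grk5 had 15 reads in GFP+ against 43 in GFP- (log2 ratio -1.60, -2.59 to -0.76). The arrestin gene arrb2b, which was picked out after its values were seen because arrestins bind Ackr3, had 1096 reads in GFP+ cells against 599 in GFP- cells (log2 ratio 0.76, 0.61 to 0.90). With totals without mitochondrial reads or with 5 reads added, 1 of the 6 genes lay above 1. The log2 ratio of arrb2b had the opposite sign to that of ackr3b. For arrb2a, the other arrestin gene measured, the log2 ratio was 0.35, with an interval of -0.09 to 0.81 that includes 0. Positive ratios were usual in the 4 groups (median 0.62), so the sign was not particular to arrb2b.

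Of 7 genes for RGS proteins, which shorten G protein signals, 2 were above 1 and 1 was below -1 (median 0.59). With at least 50 reads 4 were left, 0 of them above 1, and the median turned to -0.10. Those with at least 50 reads at either end were rgs3a, with 286 reads in GFP+ cells against 176 in GFP- cells (log2 ratio 0.59), rgs12a with 583 reads in GFP+ against 419 in GFP- (0.36), rgs4 with 61 reads in GFP+ against 83 in GFP- (-0.55) and rgs2 with 30 reads in GFP+ against 86 in GFP- (-1.62, -2.28 to -1.02). Both genes above 1, rgs14a and rgs3b, rested on 11 reads in GFP+ cells and on 0 and 3 reads in GFP- cells. These, and pik3cd, pik3ca and stat3 in the PI3K group, were picked out after their values were seen.

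The PI3K and kinase branch held the largest log2 ratios among genes with at least 50 reads in these 4 groups. Of its 11 genes with at least 10 reads, 5 were above 1 and none below -1 (median 0.98). With TMM, size factors or totals without hemoglobin, 6 were above 1. With at least 50 reads 8 were left, 3 of them above 1, and the median fell to 0.47. With single transcripts the median was 0.78. The gene pik3cg, for the PI3K catalytic subunit that G protein beta and gamma subunits activate, had 171 reads in GFP+ cells against 9 in GFP- cells (log2 ratio 4.06, 3.18 to 5.29), and the Janus kinase gene jak2a had 64 reads in GFP+ against 5 in GFP- (log2 ratio 3.44, 2.27 to 5.24). Both are known from blood cells, and the part of the higher myeloid and erythroid marker levels given above in these ratios was not tested. The other genes above 1 were pik3cd (31 reads in GFP+ against 1 in GFP-), stat3 (58 reads in GFP+ against 13 in GFP-) and pik3ca (31 reads in GFP+ against 9 in GFP-). The lowest were the regulatory subunit gene pik3r1 (522 reads in GFP+ against 549 in GFP-, log2 ratio -0.19) and the lipid phosphatase gene ptenb (103 reads in GFP+ against 98 in GFP-, log2 ratio -0.04).

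**Figure D4:**
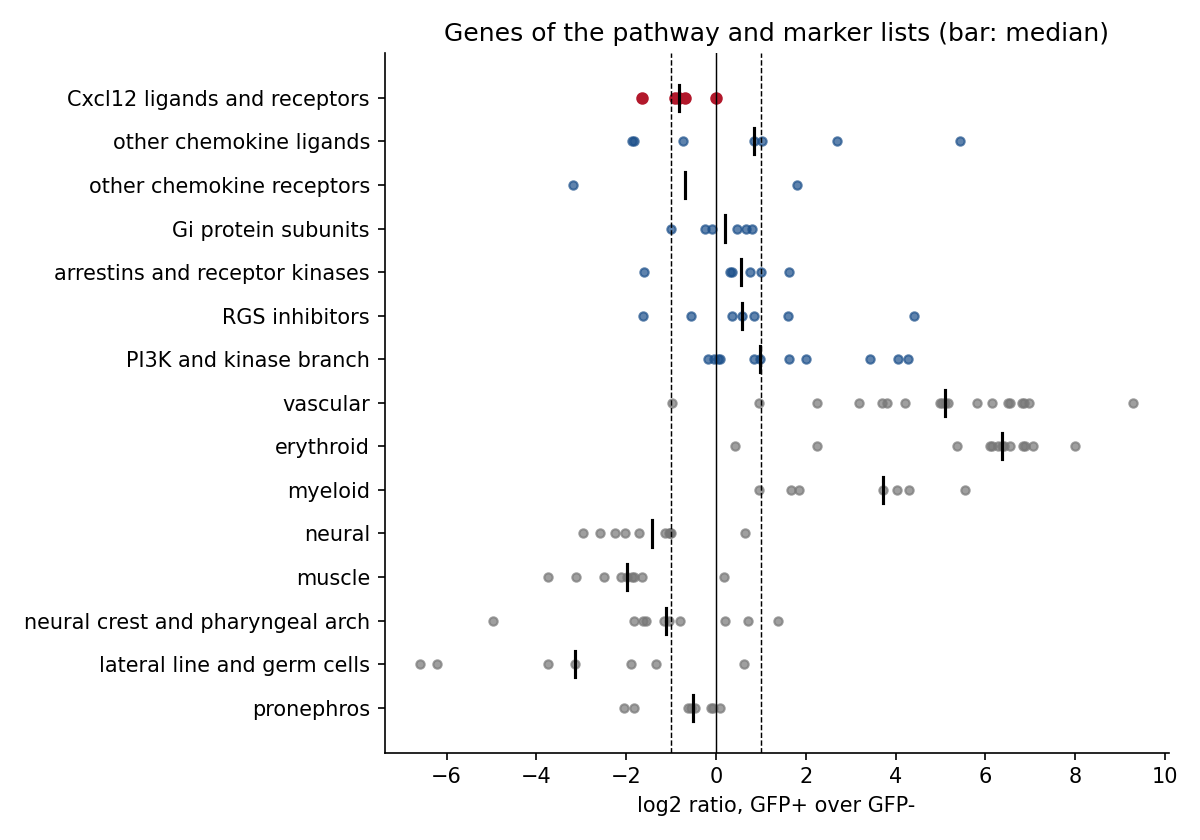
Log2 ratio of GFP+ over GFP- cells for each gene with at least 10 reads, in the Cxcl12 group (red), 6 lists of chemokine and signalling genes (blue) and 8 marker lists (grey), with a bar at each median and dashed lines at -1 and 1. The 5 Cxcl12 genes lie at or below 0 (cxcr4a at 0.10 with TMM scaling), the vascular and erythroid genes have medians of 5.09 and 6.37, and the signalling genes lie on both sides of 0.

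The genes nearest to each of the 5 in level over the 2 libraries were taken by Euclidean distance in log2 RPM among 6033 genes with a gene symbol and at least 50 reads. They were csnk2a2b and ssr3 for cxcl12a, pabpn1 and tnrc18 for cxcl12b, hsbp1a and esrrgb for cxcr4b, dpf3 and hnrnpaba for cxcr4a, and plod1a and fstl1a for ackr3b. The distance of the first was at most 0.10 in each case, for ackr3b 0.09 (plod1a, with 268 reads in GFP+ cells against 808 in GFP- cells). With only 2 values for each gene, many genes share such a pattern by their level alone.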

How the data were processed

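RNA sequencing measured 2 cell populations of Tg(fli1a:EGFP)y1 zebrafish, GFP+ and GFP-, at 22 to 24 hpf, with 1 library each. The authors deposited, for every Ensembl transcript of Zv9 with a read, the count of uniquely mapped reads, the RPKM scaled to the library total, and the coverage as a percent of the transcript length. The deposited RPKM equalled the value recomputed from counts and lengths. The aligner and counter are not given in the sources used here.

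Reads were summed per gene identifier and scaled to the library totals of 4441335 and 4105672, and log2 ratios used 0.5 added reads and genes that reached 10 reads in the libraries together. A ratio past 1 or -1 was called. A count model such as edgeR's quasi-likelihood test needs replicates and was not run. Intervals (95%) were exact Clopper-Pearson for shares and ratios, exact Poisson for levels and exact conditional for differences between genes. The log2 ratios and intervals were tried on simulated Poisson counts with planted changes. These hold counting error only, so the trial says nothing about variation between libraries or sorts. Symbols were matched by gene identifier, or by protein accession to RefSeq genes of GRCz12tu, for 13880 of 22017 genes, and listed genes with several identifiers were left out. Named genes were the 5 genes, the extremes of each list with at least 50 reads, all other chemokine genes with at least 10 reads, the most-read gene of each marker list and the genes nearest in level. Genes named outside this rule, such as markers at 0 reads, were picked out after their values were seen. Provisional symbols were left out of the nearest genes. A further list of genes is not reported here. The members, lists and rules were chosen with earlier results of these data known. Alternatives were TMM (edgeR 4.0.16) and median-of-ratios (DESeq2 1.42.0) scaling, other totals, 5 added reads, single transcripts, RPKM and other minimums. Python 3.11.15, SciPy 1.17.1 and R 4.3.3 were used.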

Additional observations from a re-analysis of the deposited data

How the results depend on the processing

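With 1 library per group no replicate could be left out. No paired analysis was possible because GFP+ and GFP- cells were each sequenced as a single library. Over the scalings, added reads, single transcripts and deposited RPKM, the log2 ratio stayed between -1.67 and -1.54 for ackr3b, between -0.94 and -0.81 for cxcr4b, between -0.85 and -0.72 for cxcl12b and between -0.70 and -0.57 for cxcl12a. For cxcr4a it lay between -0.02 and 0.11, and its sign was positive with TMM, the size factors and totals without hemoglobin. These settings raised every log2 ratio by 0.10, 0.11 and 0.09. Both size factors were 1.0, which leaves depth unscaled, and the median of all genes was then 0.0. With TMM, the size factors or totals without hemoglobin 6 of the 10 neural genes lay below -1. With the same settings 18 of 19 vascular and 7 of 7 myeloid genes lay above 1. The count of genes higher in GFP+ cells was 4710 with no minimum of reads, 1396 with at least 50 reads and 1113 where the counting interval also had to lie past 1, against 2469, and the count lower was 4953, 1610 and 1030, against 2686. These settings change how many genes are tested or called by construction. Each of 97 alternative medians of the 14 lists was set against an interval placed around the main median. It had the width of the counting interval of the gene nearest that median, which is wide where this gene had few reads. Within it stayed 92. The scalings moved every ratio by about 0.11 or less, so this count says little about stability. Outside it lay the medians of RGS (-0.10), neural (-1.87) and lateral line and germ cell genes (-1.89) with at least 50 reads. With 5 reads added, those of vascular (4.56) and lateral line and germ cell genes (-2.05) also lay outside. The median of the other chemokine ligands turned to -0.39 with at least 50 reads, within that wide interval. The shares by reads per kilobase stayed within their intervals. Counts under about 30 reads, as for cxcr4a, limit what can be detected.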
